A study of Mus musculus with 2 samples.

Results

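The cytosolic ribosomal protein genes encode the proteins of the small and large subunits of the ribosome that works outside mitochondria. They were taken from GENCODE M21 as the protein-coding genes whose symbol is Rpl or Rps followed by a digit, plus Rplp0, Rplp1, Rplp2 and Rpsa, without the Rps6k kinases and without symbols marked -ps. This gave 86 genes of the 21938 protein-coding genes on the 19 autosomes, X and Y. Of the 86, 77 encode proteins of the ribosome itself, 31 in the small and 46 in the large subunit. The other 9 symbols belong to gene copies or other proteins: Rpl3l, Rpl7l1, Rpl10l, Rpl22l1, Rpl36al, Rpl39l, Rps27l, Rps27rt and Rps19bp1, which encodes a binding protein of Rps19. The symbols were not chosen by any measured value.

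DNase-seq cuts DNA in nuclei with DNase I and sequences the ends, so that regions of open chromatin stand out as peaks. The cells were MN1, a line of immortalized mouse cells whose strain is given as B6NCrl, and 2 biological replicates were measured with 1 library each. The labels name no treatment or tissue for them, and age and sex are not known. No second condition was sampled, so the ribosomal protein genes were set beside all protein-coding genes of the same libraries, without a test. Replicate 1 held 170286 distinct peaks and replicate 2 held 162691 on these chromosomes. Read depth is unknown, since the files give no counts. Coordinates are on mm10, which is the same assembly as GRCm38.

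Every growing cell needs the ribosomal proteins in matched amounts, and their genes are among the most actively transcribed in most tissues. Their mRNAs typically begin with a C inside a run of pyrimidines, the terminal oligopyrimidine tract, through which the mTOR pathway and the protein Larp1 adjust their translation together. Many of the genes carry small nucleolar RNAs in their introns, and most have left processed pseudogenes scattered over the genome. Loss of 1 copy of several of them causes Diamond-Blackfan anaemia in humans.

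The promoter sequences of 7 genes are shown first, since results on motifs refer back to them. The first 4 (Rpl41, Rpl3, Rpl37 and Rps26) had the highest-ranked promoter peaks of the 86 genes. The others were chosen after their values were seen: Rps21 for an ETS motif, Rpl7a for the element TCGCGAGA, and Rpl22 for a strong peak without any of the 12 motifs searched. Each is the best promoter peak of replicate 1 that overlaps a peak of replicate 2, read from GRCm38 on the strand of the gene, 5′ to 3′. Capitals mark matches of the 12 motifs on either strand. For Rpl41 only 30 bases round its ETS match are given, because the whole peak lies in the leader of its longest transcript.
Rpl41, chr10:128549206-128549235, minus strand: tagtaaggcagCCGGAAGtcgctgtctcga
Rpl3, chr15:80083396-80083545, minus strand: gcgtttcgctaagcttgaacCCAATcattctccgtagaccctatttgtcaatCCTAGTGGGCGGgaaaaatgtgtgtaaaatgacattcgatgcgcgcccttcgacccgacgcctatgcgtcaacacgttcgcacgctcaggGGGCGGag
Rpl37, chr15:5116396-5116545, plus strand: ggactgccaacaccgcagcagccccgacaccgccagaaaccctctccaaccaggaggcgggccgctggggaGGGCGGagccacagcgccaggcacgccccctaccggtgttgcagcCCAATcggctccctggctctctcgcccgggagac
Rps26, chr10:128626736-128626885, minus strand: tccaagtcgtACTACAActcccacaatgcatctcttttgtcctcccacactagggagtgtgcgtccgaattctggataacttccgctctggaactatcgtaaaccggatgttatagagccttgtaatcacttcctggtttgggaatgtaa
Rps21, chr2:180257176-180257325, plus strand: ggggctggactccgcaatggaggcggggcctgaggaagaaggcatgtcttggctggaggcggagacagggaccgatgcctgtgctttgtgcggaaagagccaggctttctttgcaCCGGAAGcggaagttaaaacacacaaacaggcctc
Rpl7a, chr2:26910616-26910765, plus strand: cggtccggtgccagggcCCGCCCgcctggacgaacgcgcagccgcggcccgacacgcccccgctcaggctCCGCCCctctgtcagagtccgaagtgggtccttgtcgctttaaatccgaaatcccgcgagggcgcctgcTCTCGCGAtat
Rpl22, chr4:152325696-152325845, plus strand: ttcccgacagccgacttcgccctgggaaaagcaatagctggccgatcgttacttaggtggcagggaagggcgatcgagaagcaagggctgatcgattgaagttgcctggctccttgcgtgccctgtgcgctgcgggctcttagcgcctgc

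Nearly all ribosomal protein genes had an open promoter in both libraries. A promoter peak was a peak whose centre lay within 1 kb of a start site of a protein-coding transcript of the gene. Such a peak was found in both libraries at 83 of the 86 genes (96.5%), against 57.7% of all protein-coding genes. All 77 genes for proteins of the ribosome itself had one, as did 6 of the 9 copies and other proteins. Hotspots, the broader enriched regions that the authors listed with a q-value, were found within 1 kb in both libraries at 84 of the 86 genes (97.7%), against 58.2% of all genes. At the same 84 genes a hotspot stood at the deposited cap of the −log10 q-value in both libraries, against 54.6% of all genes.

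The 3 genes without a promoter peak in both libraries were all copies. Rpl10l, an intronless copy of the X-linked Rpl10 used in male germ cells, had no peak in either library (chr12:66283379-66284401, minus strand). It also had 0 distal peaks within 50 kb in either library. Rps27rt, a copy of Rps27, likewise had no promoter peak in either library (chr9:114982366-114982739, minus strand), with 8 distal peaks in replicate 1 and 11 in replicate 2. Rpl3l, the copy of Rpl3 that replaces it in striated muscle, had no promoter peak in replicate 1 (chr17:24727820-24736143, plus strand). In replicate 2 it had 1 peak with a score of 34, at the 43.0 percentile of that library's peaks. The hotspot at that peak was 302 bp wide with a −log10 q-value of 3.25, far below the cap. Another hotspot, at the cap, lay within 1 kb of a start of Rpl3l in both libraries, and with a window of 2.5 kb it had a peak in both. Its outermost start lay 9704 bp from that of Rps2, which is open in both.

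**Figure D1:**
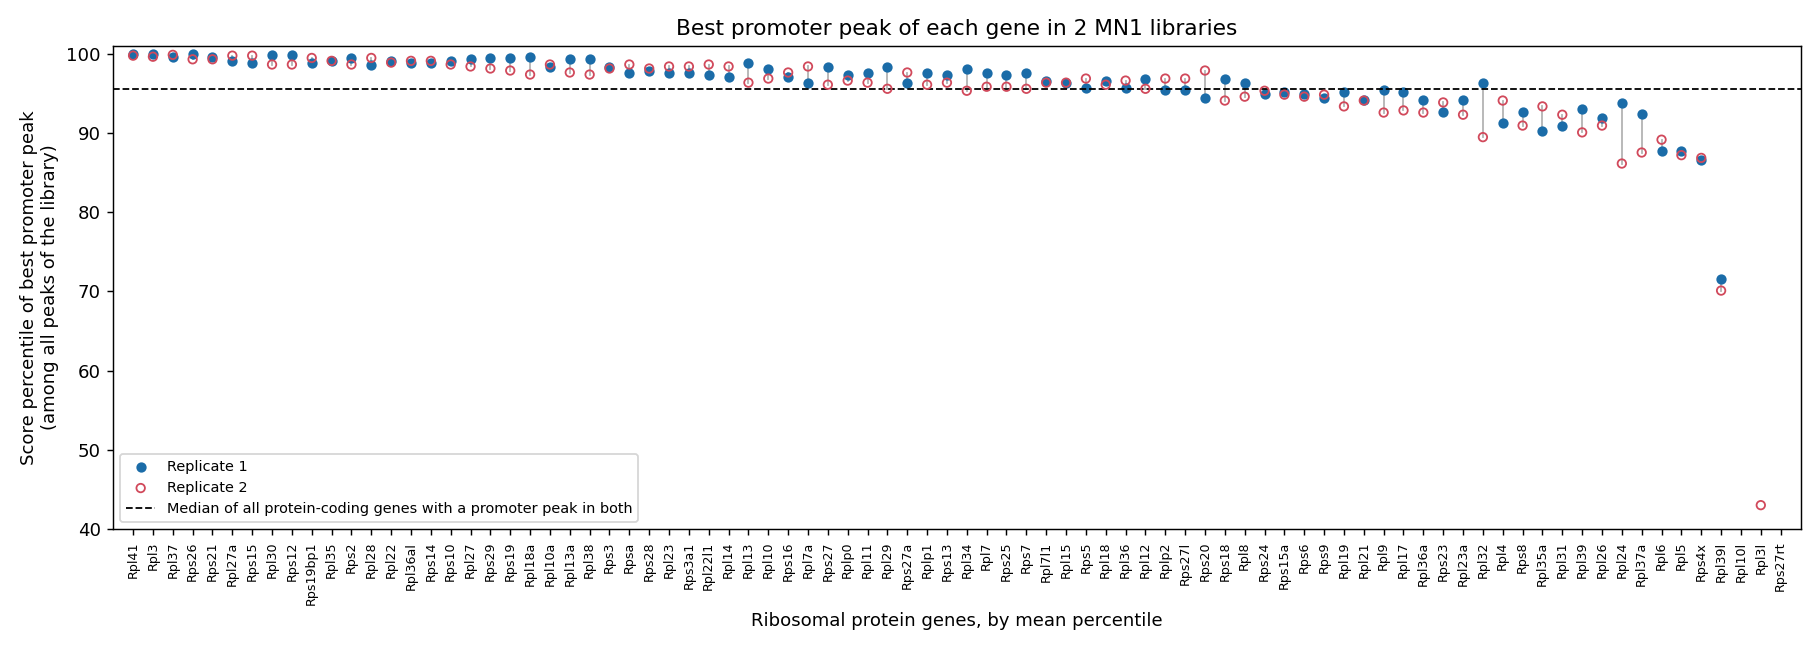
The score percentile of the best promoter peak (y axis, percent of the library's peaks ranked below it) is plotted for 84 of the 86 genes (x axis, by mean percentile), with filled points for replicate 1 and open points for replicate 2; the dashed line is the median of all protein-coding genes with a promoter peak in both, 95.5. Most genes stand above 90 in both libraries, Rpl39l stands apart at 71.6 and 70.1, Rpl3l has a point for replicate 2 alone, and Rpl10l and Rps27rt have none.

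How strong a peak was is given here as a percentile. The authors' score runs up to 150 with no stated normalization, so each score was turned into its percentile among all peaks of its own library, ties sharing their mean rank. The best promoter peak of the 83 genes had a median percentile of 97.3 in replicate 1 and 96.6 in replicate 2. The median of the mean over both was 96.8, and 95.5 over the 12653 protein-coding genes with a promoter peak in both libraries. The lower quartile was 94.5 for the ribosomal protein genes and 89.9 for all genes. A mean percentile of 90 or higher was reached by 77 of the 83 (92.8%), against 74.8% of all genes with a peak in both. The genes therefore lacked most of the weak tail of promoter peaks, while their median lay close to that of other open promoters. Related lists counted below also had high lower quartiles. These were 92.7 for mitochondrial ribosomal proteins, 94.9 for ribosome biogenesis, 95.6 for translation factors and other pyrimidine-tract mRNAs, and 96.3 for regulators. Just above the class limit of 90 stood Rpl26 at 91.4, and just below it Rpl24, with 93.8 in replicate 1 and 86.2 in replicate 2.

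The 10 highest mean percentiles belonged to Rpl41, Rpl3, Rpl37, Rps26, Rps21, Rpl27a, Rps15, Rpl30, Rps12 and Rps19bp1. Rpl41, which encodes the smallest ribosomal protein, scored 149 in replicate 1 and 146 in replicate 2, with its peak centred at −48.5 bp from a start in both (negative is upstream). Rpl3, a protein at the peptidyl transferase centre of the large subunit, scored 149 and 145 in replicates 1 and 2. Rpl37 scored 146 and 147, and Rps26, which lines the mRNA exit channel of the small subunit, scored 149 and 143. Their percentiles lay between 99.3 and 99.96 in each library. Rps21, Rpl27a, Rps15, Rpl30 and Rps12 had scores between 140 and 147. Rps19bp1, the only one of the 10 that encodes no ribosomal protein, scored 142 in replicate 1 and 144 in replicate 2.

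The 5 lowest mean percentiles among genes open in both libraries belonged to Rpl39l, Rps4x, Rpl5, Rpl6 and Rpl37a. Rpl39l, a copy of Rpl39 used in male germ cells, scored 73 and 62 in replicates 1 and 2, at percentiles 71.6 and 70.1. Rps4x, an X-linked gene whose human counterpart escapes X inactivation, followed at percentiles 86.6 and 86.9. Rpl5 stood at 87.8 and 87.2, and Rpl6 at 87.8 and 89.2. Rpl37a was at 92.4 in replicate 1 and 87.5 in replicate 2. The gap between Rpl39l and the next gene was larger than any difference between the libraries at a ribosomal protein gene, which reached 7.70 percentile points.

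Genes with their own place in ribosome biology showed a similar range. The P stalk recruits translation factors, and its genes Rplp0, Rplp1 and Rplp2 had mean percentiles of 97.0, 96.8 and 96.2. Rps27a, which is made as a fusion with ubiquitin, had 97.0. Rpl5 and Rpl11, which bind Mdm2 together with a ribosomal RNA when ribosome assembly is disturbed, stood apart from each other. Rpl11 had 97.6 in replicate 1 and 96.4 in replicate 2, above the 87.8 and 87.2 of Rpl5. The small subunit genes had a median of 97.2 and the large subunit genes 96.7, with ranges of 86.7 to 99.6 and 87.5 to 99.9 that overlap almost completely. The 20 genes of Diamond-Blackfan anaemia on a list written from textbook knowledge are all among the 77 genes for proteins of the ribosome itself. All 20 thus had a promoter peak in both libraries, and their median was 96.5.

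Other copies could be set beside their parent genes. Rpl22l1 stood at the 97.3 percentile in replicate 1 and 98.7 in replicate 2, and its parent Rpl22, which mice can live without, at 99.1 and 98.9. Rpl36al had a mean percentile of 99.0, and the X-linked Rpl36a had 93.4. Rpl39l had 70.9, and the X-linked Rpl39 had 91.5. Rps27l had 96.2 and Rps27 97.2, whereas Rps27rt had no peak. Rpl10 itself had 97.5, with scores of 139 and 133, beside the closed Rpl10l. The 4 X-linked genes were thus spread from Rps4x at 86.7 to Rpl10 at 97.5.

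The best peak of most genes covered the start site. Its centre, as the mean of the signed distances in both libraries, lay at a median of −33.5 bp from the nearest coding start (negative is upstream). Over the 12653 protein-coding genes with a promoter peak in both libraries the median was −32.5 bp. By this mean, the centre lay within 200 bp of a start at 96.4% of the 83 ribosomal protein genes and at 81.7% of those 12653 genes. The 3 exceptions, named after their values were seen, were Rpl35 (413.5 bp downstream in both libraries), Rpl4 (−424.5 bp in replicate 1 and −464.5 bp in replicate 2) and Rpl7 (−208.5 and −388.5 bp). At Rps25 the best peak lay beyond 200 bp in replicate 2 alone, at 231.5 bp, beside −64.5 bp in replicate 1. The best peaks of the libraries overlapped at 80 of 83 genes (96.4%), against 90.6% of the 12653 genes. They sat at the same position at 25 genes and at most 20 bp apart at 67. These counts were not made over all genes.

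**Figure D2:**
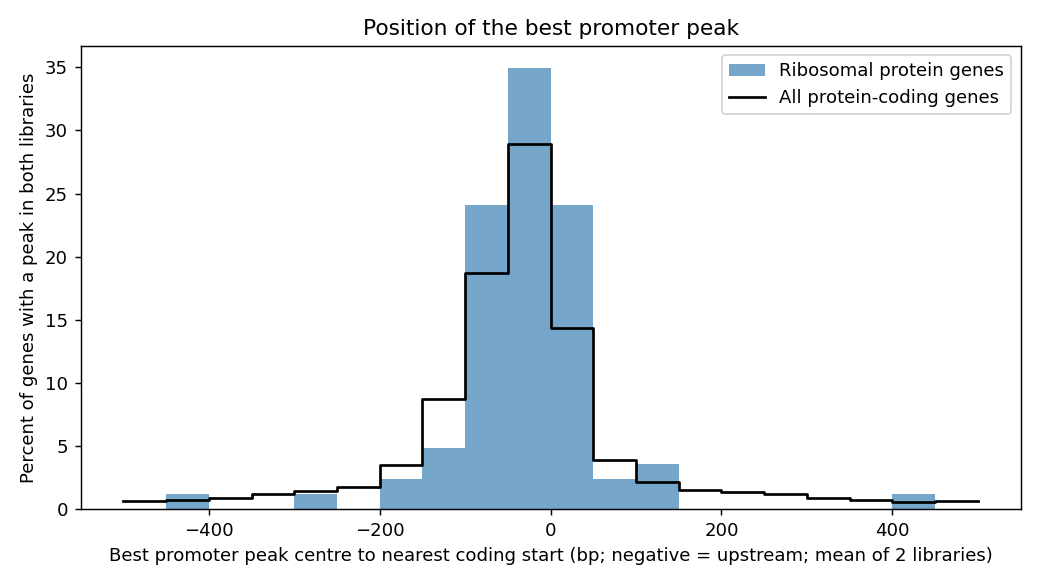
The distance from the nearest coding start to the centre of the best promoter peak (x axis, bp, mean of both libraries, negative upstream) is plotted as the percent of genes per 50-bp bin (y axis), with filled bars for the ribosomal protein genes and a line for all protein-coding genes. Each group holds only genes with a promoter peak in both libraries. Both peak in the bin just upstream of the start, which holds 34.9% of such ribosomal protein genes and 28.9% of all such genes.

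The open regions round these promoters were not wide. The hotspot at the best peak had a median width of 1129.5 bp, and 1305 bp over all protein-coding genes with a promoter peak in both libraries. The median number of promoter peaks was 3 in each library for both groups of genes. Widths ranged from 159 bp in both libraries at Rps29 to 2798 bp in replicate 1 and 2812 bp in replicate 2 at Rpl7. The CpG observed/expected ratio in the kilobase round the outermost coding start had a median of 0.79 for the ribosomal protein genes and 0.56 for all protein-coding genes, which include those without a peak. The part of CpG content in the counts above was not tested.

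The start sites were searched for the pyrimidine run by which these mRNAs are known. A run was a C followed by at least 4 pyrimidines on the sense strand, beginning within 10 bases of the outermost annotated coding start. It was found at 39 of the 86 genes (45.3%), against 31.5% of all protein-coding genes. Runs of 10 or more bases were found at 9 genes (10.5%), against 3.82% of all genes. The longest had 17 bases and belonged to Rpl32, followed by Rpl22 with 15. Where the run had to begin within 3 bases of the start, 18 of the 86 genes had one, and the share of all genes was 11.6%. An annotated start can miss the base at which most transcripts begin, so a gene without a run here may still have one at its used start. Starts of a second annotation, RefSeq, were at hand for 66 of the 86 genes. A run at any of these starts was found at 40 genes (60.6%), against 35.2% of the 16539 coding genes covered. A gene with several starts has several chances of a run there. The 30 bases round the start of Rpl22 and Rpl37 are shown with the run in capitals, since both have their peak among the sequences above.
Rpl22, chr4:152325843-152325872, plus strand: tgcgtagtgcgCCCCCCTCCCTTTCTgcct
Rpl37, chr15:5116635-5116664, plus strand: ggggtgCTTTCTCTTCCggtctctttggcc

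The 150 bases of the best shared peak were then searched on both strands for 12 motifs, in 83 ribosomal protein genes and in the 12591 protein-coding genes with such a peak. The motif of ETS factors such as Gabpa, CCGGAAG, was found in 29 of the 83 peaks (34.9%), against 14.9% of all genes. Of its 33 matches, 23 lay on the sense strand, as in Rpl41 and Rps21 above, and 1196 of 2242 over all genes. The element TCGCGAGA, the core of a palindrome bound by the factor Banp, was found in 13 peaks (15.7%), against 2% of all genes. Among the genes with it were Rps3a1, Rps6, Rps7, Rps15a, Rps28, Rpl7a, Rpl10a, Rpl12, Rpl17, Rpl23a and Rpl26. In Rpl7a, shown above, the match lies on the antisense strand near the downstream end of the peak. ETS and this element occurred together in 5 peaks, and 37 peaks had at least 1 of them. These joint counts were not made over all genes, so they cannot be called particular to ribosomal protein genes.

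The median rank of the peaks was not higher in the genes with these motifs. The median mean percentile was 96.3 for the 29 genes with an ETS match and 97.1 for the rest of the 83. It was 96.2 for the genes with TCGCGAGA and 97.0 for those without it. Among the 4 highest-ranked genes, Rpl41 alone had an ETS match in its peak and none had TCGCGAGA, and Rpl22 stood at the 99.1 and 98.9 percentile with none of the 12 motifs. In all, 10 peaks had no match to any motif. The share of such peaks over all genes was not counted.

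**Figure D3:**
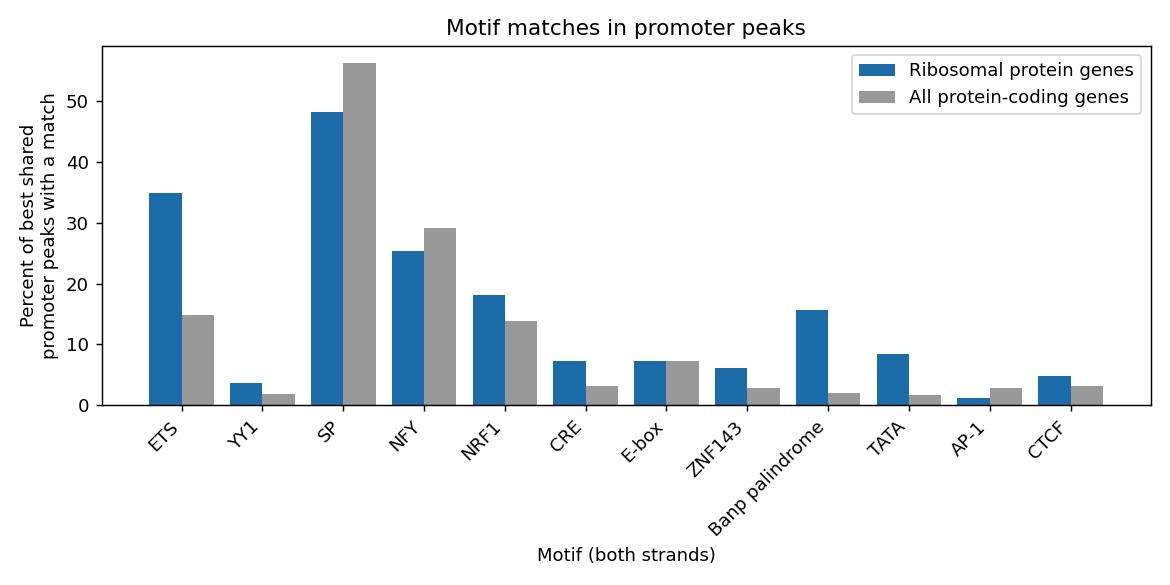
The percent of best shared promoter peaks with a match (y axis) is plotted for each of 12 motifs (x axis, both strands), in blue for the 83 ribosomal protein genes and in grey for all 12591 protein-coding genes with such a peak. The blue bar exceeds the grey by the most percentage points for ETS (34.9% and 14.9%) and for the Banp palindrome, searched as its core (15.7% and 2%), and is the shorter for SP, NFY and AP-1; for SP and AP-1 this did not hold in the 300 bases round the start.

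The commonest promoter motifs differed less between the groups of genes. The SP family motif GGGCGG was in 40 peaks (48.2%), against 56.3% of all genes, and the NFY motif CCAAT in 21 (25.3%), against 29.1%. The NRF1 motif CGCANGCG was in 15 peaks (18.1%), against 13.9%. The E-box CACGTG, which Myc and Max bind, was in 6 peaks (7.23%), against 7.18%. The counts of the others were small. The cyclic AMP response element TGACGTCA was in 6 peaks (7.23%), against 3.18%, and the ZNF143 motif ACTACAA, shown in Rps26, in 5 (6.02%), against 2.83%. The YY1 motif AAGATGGCG was in 3 (3.61%), against 1.78%, the CTCF motif CCACNAGG in 4 (4.82%), against 3.22%, and the AP-1 motif TGANTCA in 1 (1.20%), against 2.8%. In the 300 bases from 250 before to 50 after the outermost start, which were searched at genes with and without a peak, the lower shares of SP and AP-1 did not hold. SP was found there at 46.5% of the ribosomal protein genes and 43.8% of all genes, and AP-1 at 6.98% and 6.75%. Among the matches of different motifs, 4 pairs overlapped. A match describes letters in the peak and not binding.

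The TATA motif TATAAA was in the peaks of 7 genes (8.43%), against 1.71% of all genes. Among them were Rps2, Rps20, Rps28, Rpl22l1, Rpl36a and Rpl39. The median position of the matches was 11.5 bp downstream of the nearest coding start, and 27.5 bp upstream of it over all genes. In the 300 bases round the outermost start, TATAAA was found at 9 ribosomal protein genes (10.5%) and at 12.6% of all protein-coding genes. The higher share thus held for the peaks and not for this window. Genes without a peak were searched in the window too, so region and set of genes changed together.

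Distal peaks, whose centres lay more than 1 kb from every coding start, were counted within 50 kb of the starts of each gene when they overlapped a peak of the other library. At least 1 was found at 84 of 86 genes (97.7%), against 78.8% of all genes. The median was 8, with an interquartile range of 5 to 12, and 5 over all genes, with or without an open promoter, with 1 to 10. Related lists counted below also stood above 5. The median was 7 for mitochondrial ribosomal proteins (4 to 12.75) and 6 for ribosome biogenesis. For translation factors and other pyrimidine-tract mRNAs it was 11, and for regulators of ribosomal protein synthesis 9. The number of other coding genes within 50 kb had a median of 3 for the ribosomal protein genes and 2 for all genes. A distal peak within 50 kb may thus belong to a neighbour, and windows of neighbouring genes overlap.

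Rpl22 had the most shared distal peaks, 28, followed by Rpl12 and Rpl19 with 27 each, Rpl3 with 26 and Rps21 with 23. The highest-ranked distal peak of Rpl22 lay 19682.5 bp upstream of it (chr4:152306096-152306245), with scores of 135 in replicate 1 and 130 in replicate 2. That of Rpl12 lay 5391.5 bp downstream (chr2:32966876-32967025), with scores of 125 and 113. That of Rpl3 lay 7142.5 bp upstream of its outermost coding start (chr15:80098936-80099085), with 128 and 130. The best promoter peak of Rpl3, shown above, lies at a start further downstream. Few distal peaks were so strong: of the 28 near Rpl22, 4 stood at the 90 percentile or higher of replicate 1.

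At the other end, Rpl10l and Rpl7 had 0 shared distal peaks. Rpl7 had 1 distal peak in each library, and they did not overlap, although its promoter peak stood at the 97.6 and 95.8 percentile. A further 5 genes had 1 shared distal peak each, namely Rpl22l1, Rps27a, Rps13, Rps9 and Rpl39l. Strong promoters were thus found with few distal peaks (Rps27a, Rpl7) and with many (Rpl3, Rps21). The median was 7 for the small subunit genes and 9 for the large subunit genes.

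**Figure D4:**
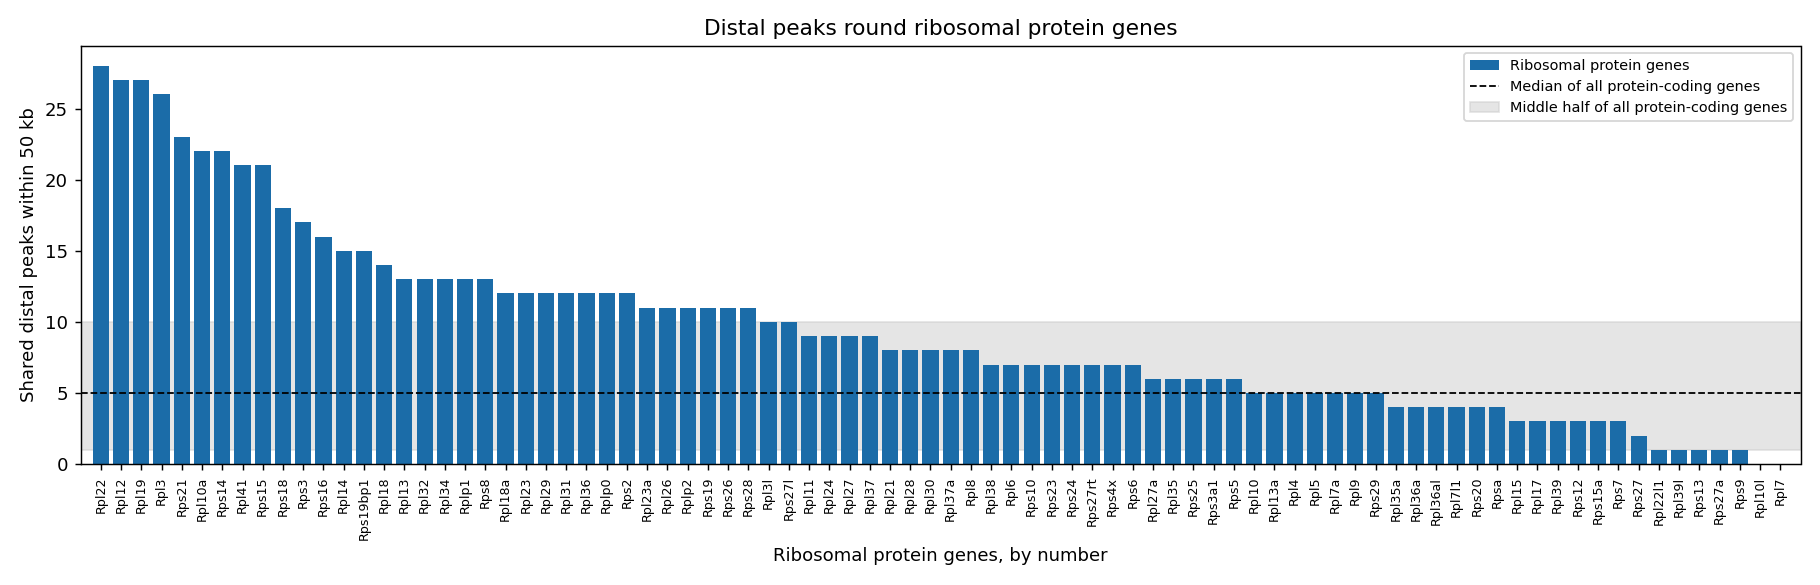
The number of distal peaks within 50 kb that both libraries share (y axis) is drawn as a bar for 84 of the 86 genes (x axis, by number), with the median of all protein-coding genes as a dashed line and their interquartile range as a grey band. The bars run from 28 at Rpl22 to 0 at Rpl7 and Rpl10l.

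The genes were scattered over 19 chromosomes, with 14 on chromosome 7, and 3 pairs lay within 50 kb of each other. Rps2 and Rpl3l lay 9704 bp apart, and Rpl36al and Rps29 24897 bp. Neither the number on chromosome 7 nor the number of pairs was set beside all genes. A divergent coding gene started within 1 kb of 11 genes (12.8%), against 8.75% of all genes. The closest was Ndufa7, a complex I subunit, 10 bp from Rps28. At such genes a promoter peak can lie within 1 kb of both starts. A snoRNA gene lay inside 30 of the 86 genes on the same strand (34.9%), against 1.27% of all genes. They held 58 snoRNA genes in all, and Rpl4 held the most, 5.

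All genes of the related lists were also open in both libraries, against the 57.7% of all protein-coding genes. Differences between the lists were not tested. Fau and Rack1, ribosomal proteins outside the symbol rule, had a promoter peak in both libraries. Fau scored 142 in replicate 1 and 146 in replicate 2, and Rack1 scored 132 and 126. All 78 genes for mitochondrial ribosomal proteins did, with a median of 95.7. So did all 17 listed translation factors and other genes of pyrimidine-tract mRNAs, with a median of 98.1, and all 22 ribosome biogenesis genes, with 96.5. Among 15 regulators of ribosomal protein synthesis, a list that shares Rps6 with the genes above, all were open as well, with a median of 97.7. By the mean percentile over both libraries, Sp1 stood highest there, with scores of 149 and 150, and Eif4ebp1, a repressor of cap-dependent translation under mTOR, lowest, with 114 and 116. Larp1 scored 138 and 142, and Gabpa 137 in both libraries.

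Pseudogenes of the same symbols were mostly closed. Of 283 annotated ones (Rpl or Rps with a digit and -ps), 17 (6.01%) had a peak in both libraries within 1 kb of their start, against 4% of 9953 other processed pseudogenes. Of these 17, 1 also lay within 1 kb of a coding start. A peak inside the pseudogene in both libraries was found at 2 (0.707%), against 1.57% of the others. Ribosomal protein pseudogenes annotated under any other kind of symbol were counted among the others. Processed copies share exon sequence with their parents, and reads from such sequence may map to more than 1 place; how such reads were treated is not given in the sources used here, and their part in these counts was not tested. The 6 protein-coding symbols that carry -ps and a number, left out above, had no promoter peak in either library.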

How the data were processed

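The authors deposited a peak list and a hotspot list for each library on mm10, made from that library alone per the notes that came with them. Aligner, caller and thresholds were not stated there or in the labels (not given in the sources used here). Peaks as deposited spanned 150 bp and had a score of the authors' making, which was used only as a percentile within its list. Each deposited hotspot had its q-value as −log10, from 1.30 up to a cap of 100. No depth is given, so no counting interval was computed.

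Repeated peaks were removed. Start sites were those of protein-coding transcripts in GENCODE M21. The best promoter peak was the one with the highest score. Shared meant an overlap of 1 bp or more, counted in the list of replicate 1. Sequence was read from GRCm38 with pysam 0.24.0. Counting used Python 3.11.15 and numpy 2.4.6, and was checked on planted peaks and motifs. No symbol ends in -ps alone, so the 6 coding symbols with -ps and a number were left out as the nearest reading.

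Genes were named by rule: those not open in both libraries, the 10 highest and 5 lowest percentiles, the 5 with most and 5 with fewest distal peaks, and genes with a known special role. Other single genes were named after their values were seen. The genes and lists were chosen with earlier results of these data known. Labels say the replicates are biological, and with 2 of them no test was made. Alternatives changed the windows, starts, overlap, score limit, motif region and library. A few genes and sequences that the rule names are counted but not reported here singly.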

Additional observations from a re-analysis of the deposited data

How the results depend on the processing

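Across the alternatives, the number of ribosomal protein genes open in both libraries lay between 81 and 84. Rps2 and Rpl17 dropped out when only the outermost start counted, Rpl21 with an overlap of 75 bp, and Rpl3l came in with 2.5 kb. The median distance was −27.5 bp with the outermost start. The hotspot width ranged from 1079 to 1138 bp over single libraries. The median of shared distal peaks was 4 within 25 kb, 15.5 within 100 kb and 5 for the upper part of the scores. In the 300 bases round the start, YY1 was found at 5 genes (5.81%, against 1.73% of all genes), the E-box at 10 (11.6%, against 7.72%), ZNF143 at 10 (11.6%, against 3.73%) and AP-1 at 6 (6.98%, against 6.75%). The pyrimidine run within 3 bases was found at 18 genes, and at any RefSeq start at 40 of 66. Both alternatives were added after seeing the data. A peak inside the pseudogene was found at 2. No paired analysis was possible because there is 1 group. The unknown depth limits what a missing peak can show.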
